A study of Mus musculus with 8 samples.

Results

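Astrocytes were followed through 10 genes that mark their identity or their reactive state: Gfap, Vim, Aqp4, Aldh1l1, Slc1a2, Slc1a3, Gja1, Glul, S100b and Serpina3n. They were taken by name from the 15274 genes of the count table, with the transcript of highest total count standing for each gene. All 10 were present and all were among the 14989 genes tested. The rule used no comparison of the genotypes, but the genes were chosen with earlier results of these data known.

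Messenger RNA had been sequenced from the ventral midbrain, the part of the mouse brain that holds the dopaminergic neurons of the substantia nigra. One group was 4 samples of Ercc1 delta/+ mice, heterozygous in all their cells for a mutant Ercc1, which encodes a subunit of an endonuclease of nucleotide excision repair. The other was 4 wild type samples, and both groups are labelled FVB:C57BL/6J for strain. The age of the animals and whether each sample is a separate animal are facts that the sources used here do not give; p-values below therefore reflect only how far these samples spread, and that spread may be technical.

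Astrocytes take up the glutamate that neurons release, turn it into glutamine, buffer potassium and water around blood vessels, and are joined to each other by gap junctions. When tissue is injured or inflamed they become reactive: they enlarge, and they raise intermediate filament proteins and secreted factors, in part through cytokine receptors that signal by gp130 and STAT3. In bulk tissue a lower value can come from fewer cells of a type or from less RNA per cell, and these cannot be told apart.

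Libraries held between 18268373 and 31197522 counts, so that 3 counts corresponded to between 0.0915 and 0.170 CPM, the unit of all levels below (counts scaled to library size by the TMM method). Ercc1 itself (NM_007948) was at 10.2, 12.9, 11.1 and 11.9 CPM in Ercc1 delta/+ replicates 1 to 4 and at 14.1, 15.4, 15.0 and 13.85 CPM in wild type replicates 1 to 4. Its groups did not overlap, with a log2 ratio of -0.34 (SE 0.10, adjusted p = 0.114, edgeR quasi-likelihood test). The dopaminergic genes Th, Slc6a3 and Slc18a2 were detected in all 8 libraries. Transcripts typical of cortical and hippocampal excitatory neurons, 10 genes listed after the values had been seen, were uneven: they summed to 3732, 2959, 1457 and 1936 CPM in Ercc1 delta/+ replicates 1 to 4 and to 1266, 2662, 1355 and 811.9 CPM in wild type replicates 1 to 4. Wild type replicate 2 and Ercc1 delta/+ replicates 1 and 2 thus stood above the other 5 libraries. The estimate of each astrocyte gene is also given without these 3, and with the cortical genes as a covariate. Without the 3, only Ercc1 delta/+ replicates 3 and 4 and wild type replicates 1, 3 and 4 remain. All 10 cortical genes were higher in Ercc1 delta/+ on average (median log2 ratio 1.14), so the covariate is itself partly tied to genotype.

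None of the 10 astrocyte genes differed between genotypes at an adjusted p under 0.05 in the edgeR quasi-likelihood test. Over all 14989 genes that test called 7, or 0.0467%. None of the 10 had an unadjusted p under 0.05, against 18.6% of all genes (9.03% higher and 9.57% lower), and in none did the 4 Ercc1 delta/+ libraries all lie on one side of the 4 wild type libraries, where 5.17% of all genes lay wholly higher and 6.86% wholly lower. The log2 fold change (the log2 ratio of Ercc1 delta/+ to wild type) was positive for 5 and negative for 5, and it was positive for 49.5% of all genes. The median was 0.015, beside -0.0025 over all genes. At the same adjusted threshold none of the 10 was called by DESeq2, which called 7.44% of the genes it gave an adjusted p, by the edgeR exact test (3.66%) or by limma-voom (0.347%).

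**Figure D1:**
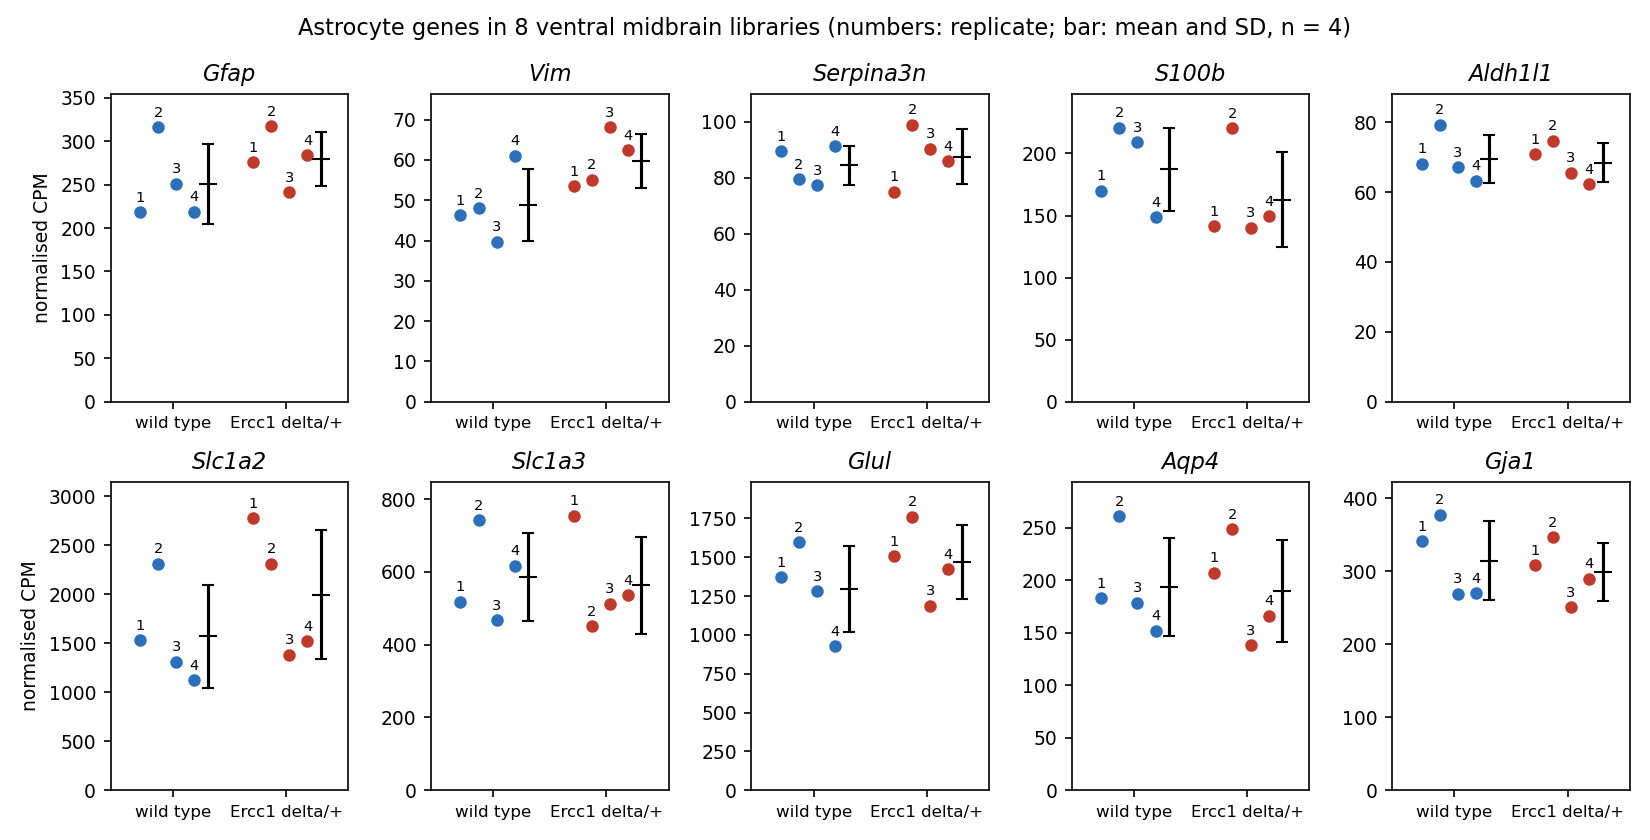
Normalised CPM (vertical axis, linear from 0) of the 10 astrocyte genes in each library, with wild type in blue and Ercc1 delta/+ in red. Numbers beside points are replicate numbers, and the bar is the mean with its SD over 4 libraries. In each gene the 2 groups overlap, and replicate 2 of both groups is often high.

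Of the 10 genes, Vim had the smallest p. Vim (NM_011701) encodes vimentin, an intermediate filament protein of reactive and immature astrocytes that is also made by vessel-wall cells, endothelium and fibroblasts. It was at 53.5, 55.1, 68.1 and 62.4 CPM in Ercc1 delta/+ replicates 1 to 4 and at 46.3, 48.0, 39.7 and 61.0 CPM in wild type replicates 1 to 4. All 4 Ercc1 delta/+ libraries lay above the wild type mean, but 2 of them lay below wild type replicate 4. The means were 59.8 ± 6.79 CPM (SD, n = 4) and 48.8 ± 8.91 CPM (SD, n = 4). On the log2 scale the difference was 0.29 (SE 0.13, 95% interval -0.0037 to 0.59), with an unadjusted p of 0.0524 and an adjusted p of 0.274 by edgeR.

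Vessel-wall and fibroblast transcripts were read beside Vim, and none passed the adjusted threshold. The log2 fold change was above 0 for 8 of 8 such genes, and their median was 0.38. The 8 genes summed to 203.4, 210.3, 177.6 and 183.6 CPM in Ercc1 delta/+ replicates 1 to 4 and to 115.6, 144.2, 165.1 and 203.2 CPM in wild type replicates 1 to 4. Wild type replicate 4 was the highest of its group both in this sum and in Vim. Ercc1 delta/+ replicate 3, in contrast, was the lowest of its group in this sum and the highest in Vim, at 68.1 CPM. Ependymal and tanycyte genes, 6 tested, had 2 positive and 4 negative estimates, with a median of -0.45. They summed to 56.5, 47.3, 72.2 and 69.45 CPM in Ercc1 delta/+ replicates 1 to 4. In wild type replicates 1 to 4 they summed to 63.45, 57.4, 39.7 and 81.4 CPM. Their highest libraries, wild type replicate 4 and Ercc1 delta/+ replicates 3 and 4, were also the highest in Vim. The part of any of these cell types in the Vim values was not tested. Without the 3 libraries rich in cortical transcripts, the log2 fold change of Vim was 0.42 (SE 0.17, adjusted p = 0.310, edgeR), and with the cortical genes as a covariate it was 0.48 (SE 0.12, adjusted p = 0.0759, edgeR).

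Gfap (NM_010277), the filament protein by which reactive astrocytes are most often recognised, was at 275.5, 317, 241 and 284 CPM in Ercc1 delta/+ replicates 1 to 4. In wild type replicates 1 to 4 it was at 218, 316, 251 and 219 CPM. The highest library of each group was replicate 2, at nearly the same value, and the groups overlapped. Between genotypes the log2 fold change was 0.15 (SE 0.13, 95% interval -0.14 to 0.45, adjusted p = 0.559, edgeR), and without the 3 libraries rich in cortical transcripts it was 0.20 (SE 0.11, adjusted p = 0.427). With the cortical genes as a covariate it was -0.04. A second deposited Gfap transcript, NM_001131020, held 53.2% of the counts of the first and can share reads with it. Its log2 fold change was 0.24 (SE 0.13, adjusted p = 0.348, edgeR with every transcript as a row).

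Genes for other intermediate filament proteins and for filament linkers were tested as a group of 9. The group includes nestin (Nes), synemin (Synm) and the linker plectin (Plec), and also the nuclear lamins Lmna, Lmnb1 and Lmnb2. Estimates were above 0 for 8 of the 9 and below 0 for 1, and their median was 0.24. None passed the adjusted threshold, while 4, including Lmna, had an unadjusted p under 0.05 in the higher direction, against 9.03% of all genes. In 2 of them, Plec and Synm, the groups did not overlap, against the same 5.17% of all genes. Plec was at 271, 251.5, 298 and 254 CPM in Ercc1 delta/+ replicates 1 to 4 and at 195, 178, 203 and 231 CPM in wild type replicates 1 to 4. Its log2 fold change was 0.41 (SE 0.09, adjusted p = 0.0776, edgeR), and after correction by an offset for length and GC content it was 0.07. Synm had a log2 ratio of 0.24 (SE 0.07, adjusted p = 0.114, edgeR), which was 0.09 with that offset. These are long transcripts (14972 bases for Plec and 7818 for Synm, beside a median of 2984 over all genes), and with the offset the median of the group was 0.09.

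Serpina3n (NM_009252), a secreted serine protease inhibitor that rises strongly in reactive astrocytes, was at 75.0, 98.9, 90.4 and 86.0 CPM in Ercc1 delta/+ replicates 1 to 4. In wild type replicates 1 to 4 it was at 89.4, 79.45, 77.25 and 91.3 CPM. Its values lay within a 1.32-fold range over the 8 libraries, and the lowest and the highest were both Ercc1 delta/+. The estimated log2 fold change was 0.05 (SE 0.09, 95% interval -0.16 to 0.27, adjusted p = 0.803, edgeR); it was 0.04 without the 3 libraries rich in cortical transcripts and 0.10 with the cortical covariate. Of its near-identical neighbours in the Serpina3 cluster, 8 were tested. They summed to between 26.2 and 37.5 CPM per library, with a median log2 fold change of 0.15 and none past either threshold. How the authors counted reads that fit several copies is unknown from these sources, so the split between Serpina3n and its copies is uncertain.

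Other markers of reactivity were read from lists in common use for astrocytes after injury. Of 10 pan-reactive genes, 8 were tested: 6 were positive and 2 negative, the median log2 fold change was 0.36, and none passed the adjusted threshold. Of the 8, 1 did not overlap between groups, in the higher direction, against 5.17% of all genes: Osmr, the receptor subunit for oncostatin M. Osmr was at 8.08, 8.10, 5.29 and 9.29 CPM in Ercc1 delta/+ replicates 1 to 4 and at 3.59, 4.01, 3.66 and 4.48 CPM in wild type replicates 1 to 4. Its log2 fold change was 0.96 (SE 0.18), and its adjusted p of 0.0602 (edgeR) missed the threshold. Hspb1, a small heat shock protein, was at 28.2, 19.0, 13.4 and 38.2 CPM against 14.4, 12.9, 5.55 and 7.11 CPM, with a log2 ratio of 1.31 (SE 0.38, adjusted p = 0.118, edgeR). Its groups overlapped.

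The 12 genes of the A1 list, which are tied to inflammatory stimulation, had a median log2 fold change of -0.04, with 5 positive and 7 negative. Of the 12, 1 lay wholly higher, a share near the 5.17% of all genes: Fkbp5, a chaperone partner of the glucocorticoid receptor that glucocorticoids induce, at 0.86 (SE 0.17, adjusted p = 0.0619, edgeR). Fkbp5 also belongs to a list of 16 glucocorticoid-induced genes, of which 15 were positive, with a median of 0.61. Of the 16, 1 passed the adjusted threshold, against 0.0467% of all genes. That one was Zbtb16, a zinc finger transcription factor, at 2.23 (SE 0.24, adjusted p = 0.0341, edgeR). In the same list 10 had an unadjusted p under 0.05 (edgeR) in the higher direction, against 9.03% of all genes. The groups did not overlap, with Ercc1 delta/+ higher, in 4, against 5.17% of all genes. Of the 12 genes of the A2 list, tied to ischaemia, 8 were tested: 5 were positive and 3 negative, with a median of 0.17. Ptgs2, the inducible cyclooxygenase that excitatory neurons of the forebrain also make, was at 12.5, 11.8, 2.10 and 4.67 CPM in Ercc1 delta/+ replicates 1 to 4 and at 1.62, 7.83, 1.50 and 1.40 CPM in wild type replicates 1 to 4. Its 3 highest libraries were those rich in cortical transcripts.

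For gp130 and STAT3 signalling, 12 genes were read. The log2 fold change was positive for 11, with none past the adjusted threshold, and the median was 0.13, or 0.06 with the offset for length and GC content. In 3 of the 12, all receptor subunits, the groups did not overlap, with Ercc1 delta/+ higher, against 5.17% of all genes. They were Osmr, which is also in the pan-reactive list, Lifr and Il6st. Lifr, the receptor for leukaemia inhibitory factor, was at 50.5, 71.2, 45.4 and 54.5 CPM in Ercc1 delta/+ replicates 1 to 4 and at 37.7, 43.6, 42.0 and 37.5 CPM in wild type replicates 1 to 4. That is a log2 ratio of 0.46 (SE 0.13, adjusted p = 0.113, edgeR). Il6st, which encodes gp130, was at 0.12 (SE 0.06, adjusted p = 0.312, edgeR). With the offset for length and GC content Il6st was at -0.01, Osmr at 0.93 (adjusted p = 0.183, edgeR) and Lifr at 0.47 (adjusted p = 0.260, edgeR). Stat3 was at 0.10 (SE 0.09, adjusted p = 0.590, edgeR), with overlapping groups.

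**Figure D2:**
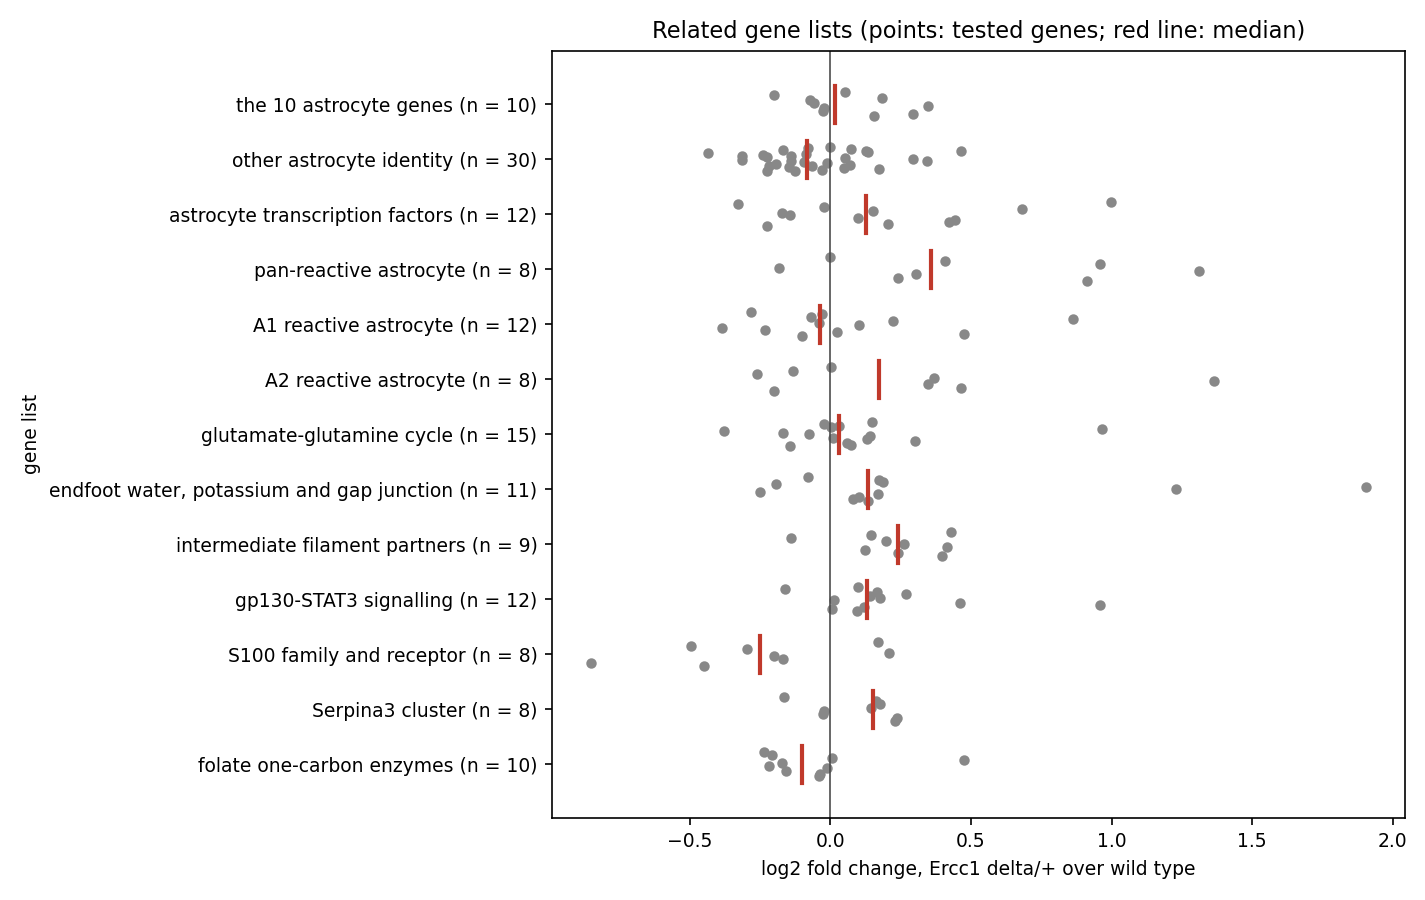
Log2 fold change (horizontal axis, Ercc1 delta/+ over wild type) of each tested gene, as grey points, in the 10 astrocyte genes and 12 related lists; red lines are medians. The 10 astrocyte genes lie between -0.20 and 0.35, the pan-reactive median is 0.36 and the median of the S100 family is -0.25.

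The glutamate transporters and glutamine synthetase were the most abundant of the 10 genes in CPM. Slc1a2 (NM_001077514) encodes the transporter GLT-1, which clears most synaptic glutamate in the forebrain. It was at 2775, 2312, 1384 and 1521 CPM in Ercc1 delta/+ replicates 1 to 4 and at 1534, 2315, 1312 and 1121 CPM in wild type replicates 1 to 4. The 3 highest libraries were wild type replicate 2 and Ercc1 delta/+ replicates 1 and 2, the same 3 libraries that were rich in cortical transcripts. As a log2 fold change, this was 0.35 (SE 0.27, 95% interval -0.26 to 0.96, adjusted p = 0.527, edgeR), the largest of the 10 and the least precise. Leaving out 1 library moved it between 0.15 (without Ercc1 delta/+ replicate 1) and 0.60 (without wild type replicate 2), and the offset for length and GC content gave 0.18. Without the 3 libraries rich in cortical transcripts it was 0.14 (SE 0.14, adjusted p = 0.666, edgeR), and with the cortical genes as a covariate it was -0.19 (SE 0.13, adjusted p = 0.430, edgeR).

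Slc1a3 (NM_148938) encodes GLAST, the other astrocyte glutamate transporter. It was at 754, 449.8, 512 and 535 CPM in Ercc1 delta/+ replicates 1 to 4 and at 518, 742, 468 and 617 CPM in wild type replicates 1 to 4. The highest and the lowest library were both Ercc1 delta/+. The log2 fold change was -0.06 (SE 0.18, 95% interval -0.47 to 0.35, adjusted p = 0.896, edgeR). It was -0.02 without the 3 libraries rich in cortical transcripts and -0.17 with the cortical covariate. Within libraries, the log2 ratio of Slc1a2 to Slc1a3 in CPM averaged 1.80 ± 0.425 (SD, n = 4) in Ercc1 delta/+ and 1.39 ± 0.358 (SD, n = 4) in wild type; the groups overlapped. The ratio was highest in Ercc1 delta/+ replicate 2, at 2.36, and lowest in wild type replicate 4, at 0.861.

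Glul (NM_008131), glutamine synthetase, was at 1507, 1762, 1188 and 1422 CPM in Ercc1 delta/+ replicates 1 to 4 and at 1372, 1598, 1282 and 927 CPM in wild type replicates 1 to 4. Wild type replicate 4 was the lowest and the groups otherwise intermingled. On the log2 scale the difference was 0.18 (SE 0.17, 95% interval -0.20 to 0.56, adjusted p = 0.592, edgeR). It was 0.13 (SE 0.18, adjusted p = 0.764) without the 3 libraries rich in cortical transcripts and -0.12 with the cortical genes as a covariate. Of 15 other genes of the glutamate and glutamine cycle, 10 were positive and 5 negative with a median of 0.03. Slc38a2, a transporter of glutamine and other neutral amino acids, had the smallest p, with a log2 ratio of 0.30 (SE 0.11, adjusted p = 0.191, edgeR).

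Aqp4 (NM_009700) is the water channel of astrocyte endfeet on blood vessels. It was at 207, 249, 138 and 166 CPM in Ercc1 delta/+ replicates 1 to 4 and at 183, 261, 179 and 152 CPM in wild type replicates 1 to 4. Replicate 2 of each group was highest, and the means, 190.2 ± 48.4 and 193.7 ± 46.9 CPM (SD, n = 4), were almost level. Between genotypes the log2 fold change was -0.03 (SE 0.21, 95% interval -0.49 to 0.44, adjusted p = 0.959, edgeR). With the cortical genes as a covariate it was -0.44 (SE 0.08, adjusted p = 0.0535, edgeR), the lowest adjusted p of any of the 10 genes in any setting. Without the 3 libraries rich in cortical transcripts it was -0.17 (SE 0.12, adjusted p = 0.553, edgeR).

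Gja1 (NM_010288), connexin 43 of astrocyte gap junctions, was at 308, 346, 251 and 289.7 CPM in Ercc1 delta/+ replicates 1 to 4. In wild type replicates 1 to 4 it was at 341, 378, 269 and 270.3 CPM. The estimated log2 fold change was -0.07 (SE 0.14, 95% interval -0.38 to 0.23, adjusted p = 0.809, edgeR). It was -0.11 (adjusted p = 0.717) without the 3 libraries rich in cortical transcripts and -0.29 (adjusted p = 0.135) with the cortical covariate. Of 11 other genes of endfeet, potassium channels and gap junctions, 8 were positive and 3 negative, with a median of 0.13. Their largest values were those of Aqp1 and Trpv4, at 1.90 and 1.23, both of which choroid plexus epithelium also makes. Aqp1 was at 8.69 CPM in Ercc1 delta/+ replicate 3 and at most 2.88 CPM elsewhere. Choroid plexus genes, 6 of 6 positive with a median of 1.75, summed to 1119 CPM in that same library and to between 59.0 and 468.5 CPM in the other 7. The part of choroid plexus in these values was not tested.

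Aldh1l1 (NM_027406), a folate enzyme used as a marker of all astrocytes, was the steadiest of the 10. It was at 70.9, 74.7, 65.6 and 62.2 CPM in Ercc1 delta/+ replicates 1 to 4 and at 68.2, 79.35, 67.1 and 63.25 CPM in wild type replicates 1 to 4, a 1.28-fold range over the 8 libraries. As a log2 fold change, this was -0.02 (SE 0.09, 95% interval -0.22 to 0.17, adjusted p = 0.917, edgeR), -0.05 without the 3 libraries rich in cortical transcripts and -0.16 with the cortical covariate. The interval corresponds to a fold change between 0.859 and 1.13. Of 10 other enzymes of folate one-carbon metabolism, 2 were positive and 8 negative, with a median of -0.10 and none past the adjusted threshold. Shmt1, at 0.48, lay wholly higher in Ercc1 delta/+, where 5.17% of all genes did.

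S100b (NM_009115), a calcium-binding protein of astrocytes that some oligodendrocytes also make, had the most negative estimate. It was at 141, 220.3, 140.0 and 149.5 CPM in Ercc1 delta/+ replicates 1 to 4 and at 170.0, 220.9, 209 and 149 CPM in wild type replicates 1 to 4. Ercc1 delta/+ replicate 2 stood apart from its group and matched the highest wild type library. The log2 fold change was -0.20 (SE 0.17, 95% interval -0.59 to 0.19, adjusted p = 0.565, edgeR). Without Ercc1 delta/+ replicate 2 it was -0.38, and with the offset for length and GC content it was -0.08. Without the 3 libraries rich in cortical transcripts it was -0.28 (adjusted p = 0.421), and with the cortical covariate it was -0.47 (SE 0.14, adjusted p = 0.108). Of 8 other genes of the S100 family and its receptor, 2 were positive and 6 negative, with a median of -0.25. S100a1 was the 1 of 8 without overlap, in the lower direction, against 6.86% of all genes, with a log2 ratio of -0.45 (SE 0.13, adjusted p = 0.112, edgeR), and S100a16 was at -0.50 (SE 0.16, adjusted p = 0.157). These transcripts are short (677 bases for S100a1), and with the offset for length and GC content S100a1 was at -0.20 and the median of the 8 was 0.00.

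**Figure D3:**
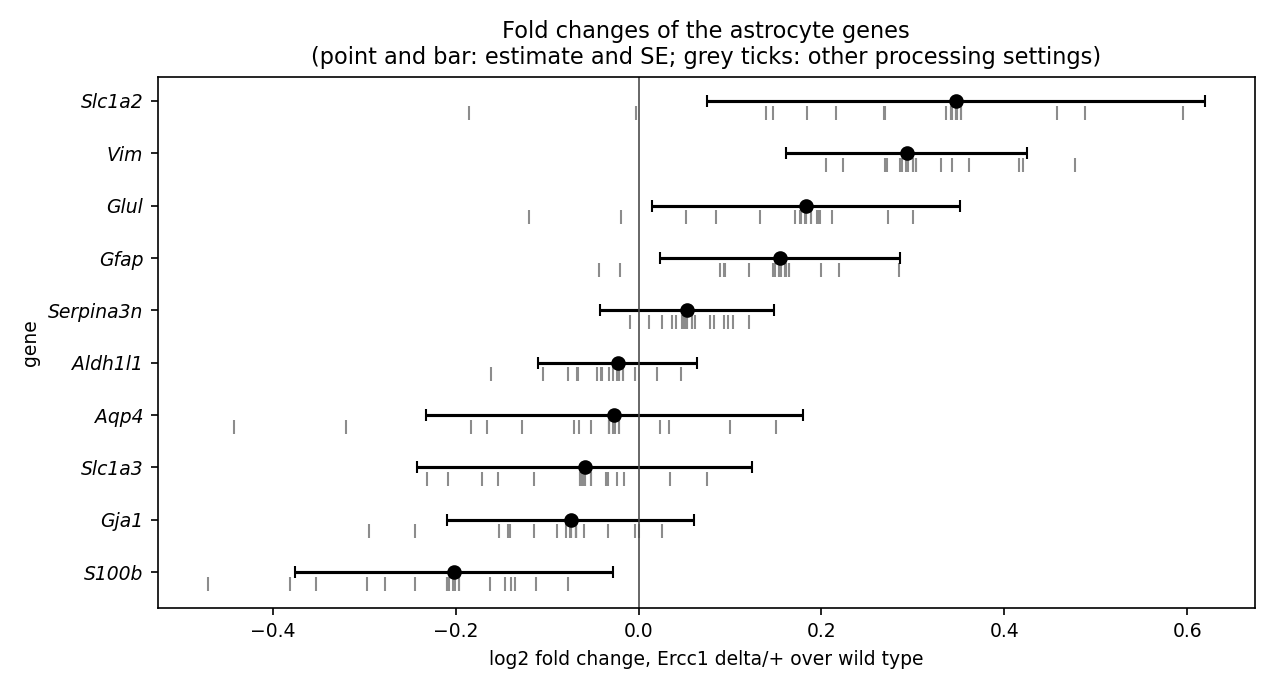
Log2 fold change (horizontal axis, Ercc1 delta/+ over wild type) of the 10 astrocyte genes. Points and bars are the estimate and its SE in the edgeR fit of all 8 libraries, and grey ticks are the estimates under 20 other settings. Estimates run from -0.20 for S100b to 0.35 for Slc1a2, and only Vim and S100b keep 1 sign in all 20 settings.

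A wider set of 30 astrocyte identity genes held 10 genes with estimates above 0 and 20 below, and its median was -0.08. None passed the adjusted threshold. In 1 of the 30 the groups did not overlap, in the lower direction, a smaller share than the 6.86% of all genes. This was Slc25a18, a mitochondrial glutamate carrier, at 65.4, 76.3, 63.5 and 65.0 CPM in Ercc1 delta/+ replicates 1 to 4 and at 84.6, 91.8, 77.3 and 82.2 CPM in wild type replicates 1 to 4. Its log2 fold change was -0.31 (SE 0.08, adjusted p = 0.0942, edgeR). Ndrg2, an abundant astrocyte gene, was at -0.22 (SE 0.08, adjusted p = 0.172, edgeR), and Slco1c1, a thyroid hormone transporter of astrocytes and vessels, was at 0.34 (SE 0.15, adjusted p = 0.253, edgeR). Summed, the 30 genes ranged from 7359 to 9353 CPM in Ercc1 delta/+ and from 8021 to 8874 CPM in wild type.

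Transcription factors of astrocytes were mixed, with 7 of 12 positive, a median of 0.13 and none past the adjusted threshold. Zbtb20, a zinc finger factor that promotes astrocyte formation and is also made by hippocampal neurons, was the 1 of 12 that lay wholly higher, a share near the 5.17% of all genes. It was at 9.06, 6.35, 5.47 and 5.49 CPM in Ercc1 delta/+ replicates 1 to 4 and at 3.63, 2.97, 2.83 and 3.69 CPM in wild type replicates 1 to 4. Its log2 fold change was 1.00 (SE 0.19, adjusted p = 0.0630, edgeR). Nfix and Nfib, of the nuclear factor I family, were at 0.44 and 0.42, with their highest values in Ercc1 delta/+ replicates 1 and 2. Sox2 was at -0.33 (SE 0.14, adjusted p = 0.241, edgeR), with 3 of its 4 Ercc1 delta/+ values below the lowest wild type value. Sox9, which is in this list and in the identity list, was at -0.23 (SE 0.12, adjusted p = 0.349, edgeR).

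Levels of different genes can be compared only per transcript length. Per kilobase, wild type means ran from 463.6 CPM for Glul to 22.2 for Vim. Glul lay above Slc1a3 (140.8), Slc1a2 (135.4), S100b (126.1), Gja1 (102.4) and Gfap (94.8), which overlapped with their neighbours in that order. Below these came Serpina3n (40.9) and Aqp4 (38.3), and then Aldh1l1 (22.8) and Vim. The place of Slc1a2 is uncertain. Its transcript was taken as 11595 bases long, whereas a second deposited transcript with 98.3% as many counts has a model of 1957 bases, and at that length the value would be 802.5 CPM per kilobase.

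The 10 genes differed in how much they varied within a genotype. The coefficient of variation was 33.0% in Ercc1 delta/+ and 33.4% in wild type for Slc1a2, against 8.16% and 9.96% for Aldh1l1. Much of the variation ran along the same libraries. The 2 highest libraries were Ercc1 delta/+ replicate 2 and wild type replicate 2 for 6 genes: Gfap, Aqp4, Aldh1l1, Gja1, Glul and S100b. Ercc1 delta/+ replicate 3 was among the 3 lowest for 8 of the 10, and wild type replicate 4 for 7.

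Within genotypes, after each group mean of log2 CPM was subtracted, 31 of the 45 gene pairs correlated positively, with a median Pearson r of 0.49. Among Aqp4, Aldh1l1, Gja1, Glul, Slc1a2 and Gfap, a set picked after the correlations were seen, the 15 pairs had r between 0.699 and 0.914. Pairs share the same 8 libraries and their depth and scaling. Vim ran from -0.715 to 0.492 with the other genes, and Serpina3n from -0.566 to 0.492.

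Each gene was then compared with the mean of the other 9 by an exact two-sided permutation test of replicates within genotypes (576 arrangements, 10 relations, Benjamini-Hochberg adjustment). Aqp4 followed the others most closely, with r = 0.962 (p = 0.00174, the smallest these permutations can give, adjusted p = 0.0174) and rho = 0.976 (p = 0.00174, adjusted p = 0.0116). Gja1 had r = 0.904 (exact permutation p = 0.00347, adjusted 0.0174) and rho = 0.952 (p = 0.00347, adjusted 0.0116). Aldh1l1 had r = 0.926 (exact permutation p = 0.0104, adjusted 0.0347) and rho = 0.833 (p = 0.0278, adjusted 0.0556), so that it passed by r and not by rho. Slc1a2 had r = 0.864 (exact permutation p = 0.0156, adjusted 0.0391) and rho = 0.952 (p = 0.00347, adjusted 0.0116). With the 2 libraries farthest from the median left out, r was 0.921 for Aqp4, 0.778 for Gja1, 0.697 for Aldh1l1 and 0.897 for Slc1a2.

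The remaining genes did not pass after adjustment of r. Gfap had r = 0.831 (exact permutation p = 0.0347, adjusted 0.0694) and rho = 0.738 (p = 0.0868, adjusted 0.145), and its r fell to 0.313 without the 2 farthest libraries, so that it rests on those libraries. Glul had r = 0.817 (exact permutation p = 0.0417, adjusted 0.0694) and rho = 0.857 (p = 0.0191, adjusted 0.0478), so that it passed by rho and not by r, with r = 0.599 without them. S100b had r = 0.594 and Slc1a3 r = 0.229, while Serpina3n and Vim had negative values, -0.221 and -0.503 (exact permutation p between 0.177 and 0.601 for these 4 genes). Without the 2 farthest libraries r was -0.126 for S100b, 0.372 for Slc1a3, -0.718 for Serpina3n and -0.728 for Vim. The positive value of S100b thus also rests on those libraries.

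The deviation of the 30 other identity genes had a narrower span, from -0.18 on the log2 scale in Ercc1 delta/+ replicate 3 to 0.17 in wild type replicate 2. The cortical and hippocampal genes spanned -1.62 in wild type replicate 4 to 1.50 in Ercc1 delta/+ replicate 2, and thalamic genes, also listed after the values were seen, were lowest in Ercc1 delta/+ replicates 1 and 2. The medians of the log2 fold change were 1.14 for the 10 cortical and hippocampal genes, all positive, and -0.31 for the 6 thalamic genes, all negative.

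**Figure D4:**
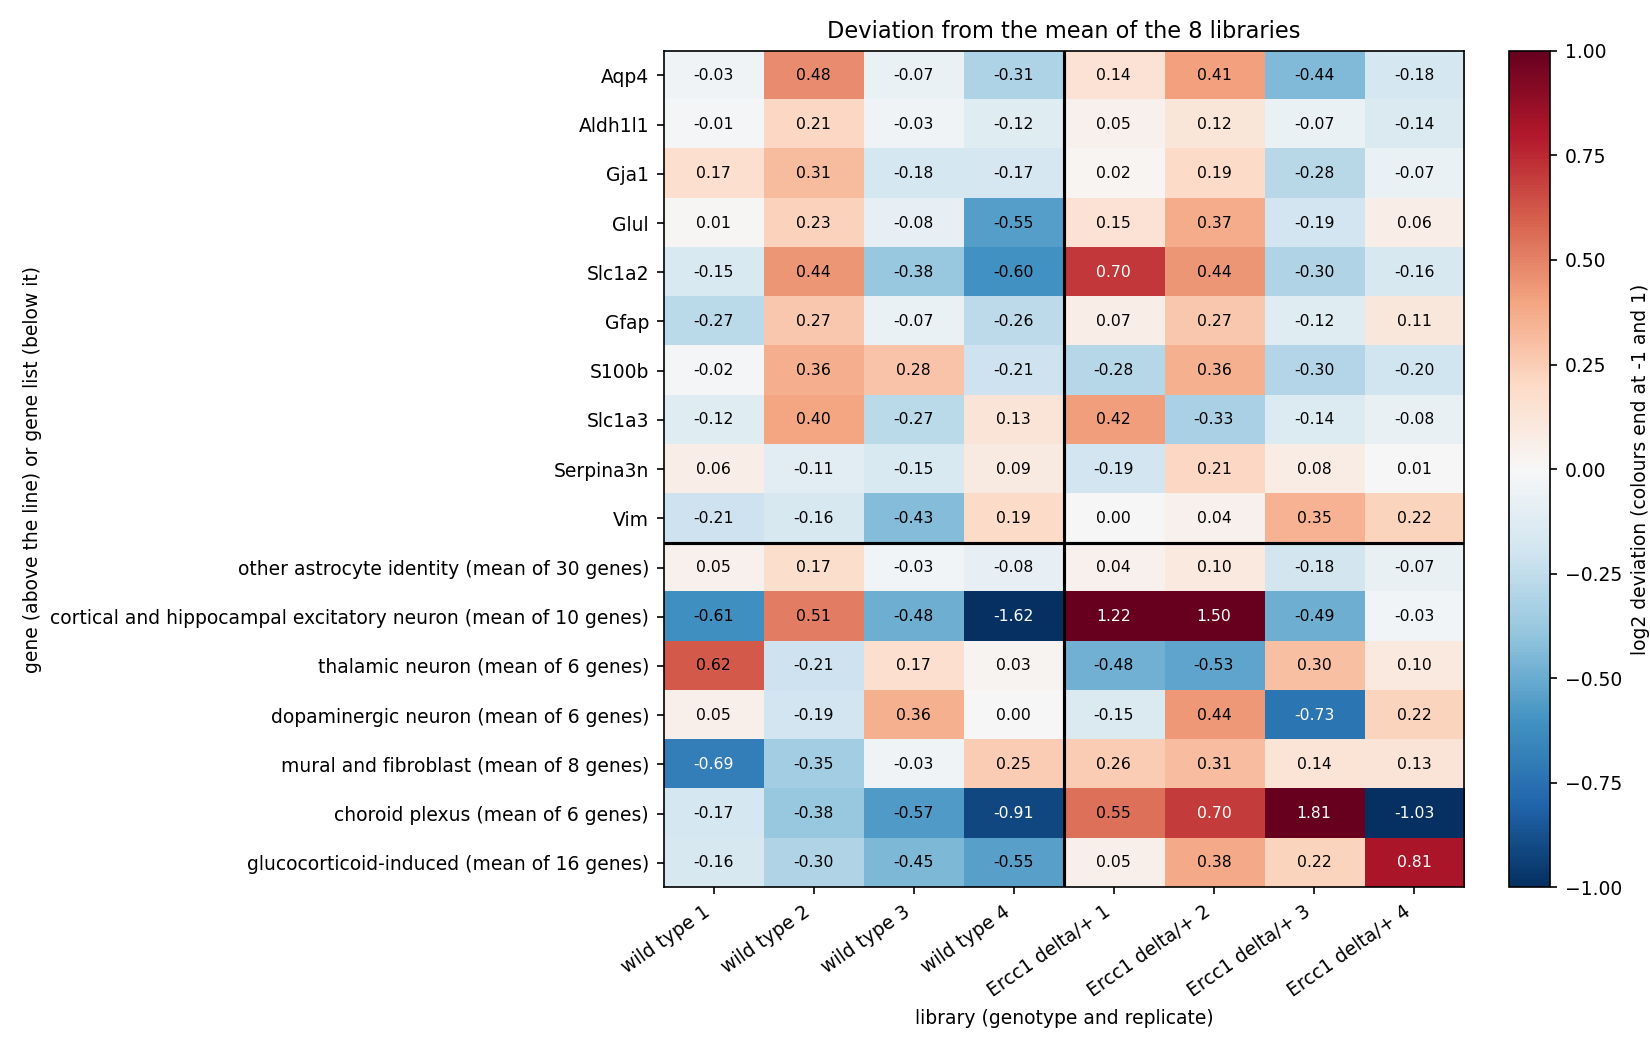
Deviation of log2 CPM from the mean of the 8 libraries (colour and printed number) for the 10 astrocyte genes (above the line) and for the means of gene lists (below it), by library (horizontal axis). Aqp4, Aldh1l1, Gja1, Glul and Gfap are above their means in replicate 2 of both genotypes, as are the cortical and hippocampal genes; Vim is not highest in either of these libraries.

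Of 12060 genes with at least 5 CPM, those most like the mean of the 10 astrocyte genes within genotypes were Rerg (r = 0.991), Socs5 (0.980), Dynll1 (0.980), Asic4 (0.979), H2az2 (0.977), Usp21 (0.977), Mapk4 (0.975) and a transcript without a matched symbol, NM_053097 (0.975). None of these 8 belongs to the astrocyte lists. Dynll1, a dynein light chain, had the same mean of 148.0 CPM in both genotypes, and its lowest library was Ercc1 delta/+ replicate 3.

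Promoters were set side by side for 2 genes of the correlated set and 2 outside it. RefSeq starts of the GRCm38.p6 assembly matched 9 of the 10 genes, all but Aqp4, and the 250 bases before the start are shown for 4 of them. Gfap lies at chr11:102897201-102897450 (minus strand) and Slc1a2 at chr2:102706188-102706437 (plus strand); both are in the set of 6 above. Slc1a3, at chr15:8710808-8711057 (minus strand), and Serpina3n, at chr12:104406458-104406707 (plus strand), are outside that set, although Slc1a3 correlated with Slc1a2 at r = 0.547; the difference between pairs was not tested. Sequences run 5′ to 3′ along the gene, and capitals mark matches to the motifs named after them.
Gfap: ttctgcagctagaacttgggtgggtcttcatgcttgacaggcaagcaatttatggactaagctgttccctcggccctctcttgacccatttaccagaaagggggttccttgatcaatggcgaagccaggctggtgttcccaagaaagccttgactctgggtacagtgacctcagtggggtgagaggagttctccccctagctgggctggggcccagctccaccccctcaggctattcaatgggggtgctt
Slc1a2: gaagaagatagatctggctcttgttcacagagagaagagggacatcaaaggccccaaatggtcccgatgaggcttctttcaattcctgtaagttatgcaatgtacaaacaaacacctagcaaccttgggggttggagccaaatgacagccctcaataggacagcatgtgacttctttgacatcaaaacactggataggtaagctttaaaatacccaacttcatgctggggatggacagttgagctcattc
Slc1a3: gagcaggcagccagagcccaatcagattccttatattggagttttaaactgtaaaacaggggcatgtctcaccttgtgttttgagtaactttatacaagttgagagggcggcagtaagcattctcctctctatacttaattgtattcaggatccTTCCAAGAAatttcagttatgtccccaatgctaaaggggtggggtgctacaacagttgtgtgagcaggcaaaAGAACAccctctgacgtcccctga
Serpina3n: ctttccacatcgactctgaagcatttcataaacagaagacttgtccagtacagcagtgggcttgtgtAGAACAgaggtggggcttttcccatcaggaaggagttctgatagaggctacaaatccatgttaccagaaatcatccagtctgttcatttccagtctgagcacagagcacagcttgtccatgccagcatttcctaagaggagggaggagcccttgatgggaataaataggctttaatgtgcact

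Motifs were searched on both strands, and shares of all promoters below are of the promoters searched, without chr18. The STAT motif TTCNNNGAA was in 1 of the 9 promoters, that of Slc1a3, as TTCCAAGAA starting 96 bases before the start, and in 7.02% of all 32851 promoters. AGAACA, 1 side of the glucocorticoid response element, was in 2 of 9 (Slc1a3, 24 bases before the start, and Serpina3n, 183 bases before it) and in 16.1% of all promoters. The full element, which holds that side and its inverted copy 3 bases apart, was in none of the 9 and in 0.00913% of all promoters. TTGGCA, 1 side of the nuclear factor I site, was in the S100b promoter alone among the 9, 19 bases before the start, and in 12.3% of all. The full nuclear factor I site was in none of the 9 and in 0.0365% of all promoters, and the SOX motif ACAATG in none and in 10.7%. These are matches of letters in a window of 250 bases.

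Markers of other cell types gave these medians of the log2 fold change, with no gene past the adjusted threshold in any of them: 0.005 for 10 microglial genes, -0.07 for 8 oligodendrocyte genes, 0.05 for 5 precursor genes, 0.10 for 7 neuronal genes, -0.11 for 6 dopaminergic genes, 0.10 for 6 endothelial genes and -0.45 for 6 ependymal genes. The groups did not overlap, with Ercc1 delta/+ higher, in 1 of 6 endothelial genes and 1 of 5 precursor genes, against 5.17% of all genes. These were Flt1, at 0.43 (adjusted p = 0.0664, edgeR), and Gpr17, at 0.39. Stmn2, at -0.19, was the 1 of 7 neuronal genes that lay wholly lower, against 6.86% of all genes. Microglial genes summed to between 390.3 and 454.6 CPM in Ercc1 delta/+ and to between 337.8 and 493.2 CPM in wild type. In the authors' deposited table the log2 fold changes of the 10 genes had the same signs and none had an adjusted p under 0.05, where 1.86% of its 19931 rows did. The smallest p-values for these genes in the authors' deposited table were 0.0339 for the Slc1a2 transcript NM_011393 (log2 fold change 0.49, adjusted p = 0.313) and 0.0362 for Vim (0.28, adjusted p = 0.322).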

How the data were processed

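Poly(A) RNA of the ventral midbrain was sequenced from 4 Ercc1 delta/+ and 4 wild type samples in 1 shared lane, per the labels' protocols. TopHat 1.3.1, edgeR and the mm9 build are named in the submitters' processing notes; for the counting tool, strand and reads that fit several places the entry is: not given in the sources used here. The authors deposited raw counts for 19931 coding RefSeq transcripts. The deposited log2 fold changes, p-values and adjusted p-values are the authors' own comparison. No row total is under 31 counts, so rare transcripts had been left out.

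Of the rows, 19600 matched a gene symbol (RefSeq of GRCm38.p6 or GENCODE) and 331 were kept by identifier. The row of highest total stood for each of 2906 genes with several rows, and 45 genes with counts identical to another were merged, leaving 15274 genes. The references served for names, transcript length and GC content (98.24% of genes) and the printed promoters. The test was edgeR 4.0.16 in R 4.3.3: quasi-likelihood, TMM, filterByExpr, two-sided, Benjamini-Hochberg over 14989 genes, threshold 0.05; SE is the estimate over the root of F. CPM are TMM-scaled, with a prior count of 2 for log2 CPM. Replicates of a group differed by more than sampling noise in each pair (lowest chi-square over degrees of freedom 11.9).

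Alternatives were RLE factors, no filter, a filter of at least 1 CPM in each library, DESeq2 1.42.0, limma-voom 3.58.1, the edgeR exact test, the replicate number as a block, an offset for length and GC content (lowess, span 0.3), a depth term that marks the 4 libraries with fewest counts, every transcript as a row, and leaving out each library. Added after seeing the data were leaving out the 3 libraries rich in cortical transcripts, those genes as a covariate, and the permutation p-values of correlations. The members and lists were chosen with earlier results of these data known. Genes are named by a rule: the 10 members, Ercc1, up to 4 genes of each list with the smallest p, the 8 genes most like the members with at least 5 CPM, and Th, Slc6a3 and Slc18a2; Stat3, among others, was named after its values were seen where it falls outside it. Some genes the rule takes are not reported here. The test was checked on simulated data. Limits from counts cover counting error only.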

Additional observations from a re-analysis of the deposited data

Results flagged for a closer look

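One value of the 10 astrocyte genes stood apart from its group. S100b in Ercc1 delta/+ replicate 2 was at 220.3 CPM, while the other 3 Ercc1 delta/+ libraries lay between 140.0 and 149.5 CPM. The gap to the nearest library was 0.881 of the range of its 4 samples, above Dixon's critical value at 95%. Chance sets apart about 1 in 20 such groups, and 20 were examined (10 genes in 2 genotypes).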

How the results depend on the processing

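None of the 10 genes passed the threshold under any of the 20 alternatives run. The estimate kept its sign in all 20 for Vim (0.21 to 0.48) and S100b (-0.47 to -0.08). It changed sign with the depth term for Gfap (-0.0201), Slc1a2 (-0.0031) and Glul (-0.0190), with the cortical covariate for Gfap (-0.0436), Slc1a2 (-0.19) and Glul (-0.12), and with the length and GC offset for Aqp4 (0.0235). Leaving out 1 library gave ranges of -0.18 to 0.15 for Aqp4, -0.0678 to 0.0464 for Aldh1l1, -0.23 to 0.0751 for Slc1a3, -0.15 to 0.0254 for Gja1, -0.0098 to 0.12 for Serpina3n, 0.09 to 0.28 for Gfap, 0.15 to 0.60 for Slc1a2 and 0.05 to 0.30 for Glul; of the first 5, each but Serpina3n crossed 0 without wild type replicate 2, as did Slc1a3 and Serpina3n without Ercc1 delta/+ replicate 2, Aqp4 and Gja1 without its replicate 3, and Aqp4 and Aldh1l1 without its replicate 4. The cause was not tested. Genes called over the whole table, 7 as reported, were 33 with RLE factors, 67 with the stricter filter, 1028 with DESeq2, 52 with limma-voom, 548 with the exact test, 1 with the offset, 1 with the depth term, 4 with every transcript as a row, 2 with the cortical covariate, and 0 without the 3 libraries rich in cortical transcripts (edgeR, 2360 at an unadjusted p under 0.05). Leaving out 1 library gave 0 (without Ercc1 delta/+ replicate 4; 2101 at an unadjusted p under 0.05 by edgeR) to 321 (without Ercc1 delta/+ replicate 2). With the replicate number as a block, edgeR called 0 genes (2928 at an unadjusted p under 0.05). Deviations of same-numbered samples correlated at -0.321, 0.192, 0.003 and 0.318, so the numbers are not taken as pairs, and 1 of 4 numbers correlated best with its own. With 4 libraries a group, the 95% intervals of the 10 genes still allow a fold change of up to 1.95 for Slc1a2 and down to 0.663 for S100b.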
